A study of Mus musculus with 2 samples.

Results

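The interferon-induced GTPases described here are 10 mouse genes, taken by symbol from the feature rows of both count matrices, and they are 10 of 32285 genes measured. The set holds 6 guanylate-binding protein genes (Gbp2, Gbp2b, Gbp3, Gbp4, Gbp5 and Gbp7) and 4 immunity-related GTPase genes (Iigp1, Igtp, Irgm1 and Irgm2). The RNA came from single cells of subcutaneous mouse tumours, with 1 library from a diet free of serine and glycine and 1 library from a control diet. The serine/glycine-free library is titled SG and the control library CT, read here from the series' design text, and they are called SG-free and control where values are paired. Both are labelled only as tumour, and no genotype, sort, drug or other treatment is named. The sources used here leave out how many mice a library pools, as well as the tumour line, strain, sex and age. Each difference below is therefore between 2 single libraries, without replicates and without a test, and intervals (95%) cover counting error only. Levels are given in CPM, a gene's share of the UMIs of a cell class scaled to a common total, where a UMI is a tag that marks 1 captured RNA molecule. CPM of 3′-end tags do not scale with transcript length.

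Guanylate-binding proteins and immunity-related GTPases are made in response to interferons, above all interferon-gamma, whose receptor signals through JAK kinases. The proteins gather on membranes around intracellular microbes and on microbes in the cytosol, where they break vacuoles open and feed inflammasomes, the complexes that activate caspases. Among the immunity-related GTPases, Iigp1 (Irga6) is an effector that loads onto such vacuoles, while Irgm1, Irgm2 and Igtp (Irgm3) are regulators that sit on the cell's own membranes and hold effectors inactive there. In tumours these genes are often read as a record of interferon reaching a cell.

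Short promoter elements link interferon signalling to genes of this kind, and the windows below show matches to their letters. The interferon-stimulated response element (ISRE) is bound by interferon regulatory factors, and the gamma-activated site (GAS) is the element through which interferon-gamma acts most directly. RefSeq promoters (GRCm38.p6, 250 bases before to 50 bases after a transcript start) were available for 8 of the 10 genes, Gbp4 and Iigp1 not among them. They were searched on both strands for GAAANNGAAA as the ISRE letters and for TTCNNNGAA as the GAS letters, which read the same on both strands and do not overlap with the ISRE matches shown. Each window below is 30 bases long, runs 5′ to 3′ on the gene's own strand, and has the matched letters in capitals. The windows lie at chr3:142620594-142620623 (Gbp2, plus strand), chr3:142594700-142594729 (Gbp2b, plus strand), chr3:142559992-142560021 (Gbp3, plus strand), chr3:142496759-142496788 (Gbp5, plus strand), chr3:142530273-142530302 (Gbp7, plus strand), chr11:58199507-58199536 (Igtp, plus strand), chr11:58214898-58214927 (Irgm2, plus strand) and chr11:48871428-48871457 (Irgm1, minus strand).
Gbp2: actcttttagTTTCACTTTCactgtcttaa
Gbp2b: gtacttctaaTTTCACTTTCttctttatca
Gbp3: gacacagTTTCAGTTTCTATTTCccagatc
Gbp5: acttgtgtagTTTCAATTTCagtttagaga
Gbp7: gtgtgtgcagTTTCAGTTTCagttctccat
Igtp: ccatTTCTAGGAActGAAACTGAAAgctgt
Irgm2: ccatTTCCAGGAActGAAACTGAAAgctgt
Irgm1: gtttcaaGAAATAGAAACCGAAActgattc

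The ISRE letters were in a promoter of 8 of 8 genes, against 1079 of 27025 genes with a RefSeq promoter. Counted by promoter, 8 of the members' 9 (88.9%) held them and 1 did not, against 3.44% of 32851 RefSeq promoters. The 5 Gbp genes carried them on the opposite strand, so the windows show them reversed and complemented, whereas Igtp, Irgm1 and Irgm2 carried them on their own strand. Gbp3 and Irgm1 each held a pair of overlapping matches. The first matched base lay from 24 bases (Irgm1) to 165 bases (Gbp5) before the transcript start. The GAS letters were in the promoters of Gbp5, Gbp7, Igtp and Irgm2, against 2582 of the 27025 genes, and by promoter in 44.4% of the members' promoters against 8.30% of all. Both elements were in 4 of the 8 genes against 146 of the 27025 genes, and in 44.4% of the members' promoters against 0.454% of all. The windows of Igtp and Irgm2 hold a GAS match directly before the ISRE match, and 29 of their 30 bases are the same. A match is a description of letters and not evidence of binding.

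Most members lie in clusters of near relatives. Gbp5, Gbp7, Gbp3, Gbp2b and Gbp2 are neighbours on chromosome 3 of GRCm38 (GENCODE M21), where Gbp2 spans chr3:142620602-142638008 and Gbp2b chr3:142594847-142619179. Gbp4 lies at chr5:105115767-105139586, where its annotation overlaps Gbp8 and Gbp9 on the same strand. Igtp (chr11:58199556-58207591) and Irgm2 (chr11:58199618-58222782) overlap on the same strand, Irgm1 lies apart at chr11:48861968-48871683, and Iigp1 is on chromosome 18. Because the libraries read transcript ends, the last 500 bases of each transcript were compared with all other genes in words of 50 bases. Gbp4 shared 19.4% of its words, mainly with Gbp6, Irgm1 3.96%, Gbp3 3.25%, Gbp5 1.62%, and the other 6 genes none. Counts of Gbp4 could thus be split with Gbp6, and to a smaller degree those of Irgm1, Gbp3 and Gbp5 with other genes. Igtp and Irgm2 shared no word in these ends, but reads from elsewhere in their overlap could be split. The values of these genes are less certain than their counting intervals.

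Cells were assigned to classes by marker panels that hold none of the 10 genes, and a class is described if it had at least 50 cells in each library. After filtering, 19106 SG-free and 13588 control cells remained, with median depths of 7305 (SG-free) and 11310.5 (control) UMIs per cell. Of these, 10960 SG-free and 9797 control cells were presumed tumour cells, gated on Hmga2, Rhox5, Krt20, Krt18 and Lgals7 and on a low leukocyte panel. The tumour line being unknown here, that name rests on these genes. The C1q macrophage-like class held 1084 SG-free and 915 control cells, led by Vsig4 and the C1q genes, and the C1q-low monocyte/macrophage-like class 441 SG-free and 404 control cells, led by Chil3 and Thbs1. CD8 T-like cells numbered 797 (SG-free) and 273 (control), other T-like cells, led by Foxp3 and Cd4, 500 (SG-free) and 191 (control), and NK-like cells 155 (SG-free) and 123 (control). There were 116 SG-free and 99 control cDC1-like (cross-presenting dendritic) cells, 89 SG-free and 79 control neutrophil-like cells and 92 SG-free and 60 control fibroblast-like cells. A further 3951 SG-free and 1337 control cells met no panel and 523 SG-free and 231 control cells carried markers of more than 1 class, and both were left out. Of the cells that met no panel, 2986 in SG-free and 951 in control had a tumour panel of at least 5 per 10000 UMIs. Median depth was below that of the control library in all 9 classes, for example 10005 (SG-free) against 13317 (control) UMIs in presumed tumour cells, so shares of cells are given after thinning to 1 depth. The libraries shared 87 barcodes. Without these barcodes the summed log2 ratios given next were 0.90 (presumed tumour), 0.87 (both macrophage-like classes joined) and -0.01 (CD8 T-like), as with them.

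The GTPases were higher in the serine/glycine-free library in presumed tumour cells, both macrophage-like classes and fibroblast-like cells, and not in T-like cells. The 10 genes together stood at 870 CPM in presumed tumour cells of the serine/glycine-free library, against 467 CPM in those of the control library, a log2 ratio of 0.90 (0.88 to 0.91). A member of the set was counted as higher at a log2 ratio of at least 0.5 with at least 100 UMIs over both libraries. By this rule 10 of 10 members were higher in presumed tumour cells, where 5.82% of 13293 genes were higher, 4.79% were lower and the median gene stood at 0.03. The median of the 10 was 0.86, and their range was 0.71 to 1.26. With 2898 SG-free and 928 control cells added that met no panel and had at least 5 per 10000 UMIs of tumour genes and a low leukocyte panel, the sum's log2 ratio was 0.91 and 10 of 10 were higher, an alternative chosen after seeing the data. In C1q macrophage-like cells the sum was 1902 CPM in the serine/glycine-free and 1073 CPM in the control library (0.83, 0.78 to 0.88). There 8 of 10 members were higher and 0 lower, at backgrounds of 3.1% and 3.99%, with a median of 0.86 beside -0.03 over all genes. In C1q-low cells the sum was 1610 CPM in SG-free and 791 CPM in control (1.02, 0.91 to 1.14), and 8 of 9 members with enough UMIs were higher and 0 lower, at backgrounds of 8.96% and 5.36%. With both classes joined, 8 of 10 members were higher and 0 lower, at backgrounds of 3.35% and 3.65%.

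In CD8 T-like cells the summed levels did not differ beyond counting error. It was 603 CPM in the serine/glycine-free library and 606 CPM in the control library, a log2 ratio of -0.01 (-0.16 to 0.15). None of the 5 members with 100 UMIs was higher there, at a background of 5.36%, and 0 of the 5 were lower, at a background of 3.52%. Other T-like cells are the T-like cells with a Cd4 or Foxp3 UMI or without a Cd8a or Cd8b1 UMI. CD8 T cells whose Cd8 RNA was missed can thus be among them. Other T-like cells stood at 899 CPM in SG-free and 937 CPM in control (-0.06, -0.24 to 0.12). Of 4 members with enough UMIs there, 0 were higher, at a background of 8.7%, and 1 was lower (Gbp4), at a background of 6.44%. NK-like cells (488 CPM in SG-free and 359 CPM in control, 0.44, 0.16 to 0.73) and cDC1-like cells (426 CPM in SG-free and 323 CPM in control, 0.40, 0.10 to 0.70) lay between. In NK-like cells the 2 members with enough UMIs, Gbp4 and Gbp7, were both higher, at a background of 10.8%, with 5.59% of genes lower. In cDC1-like cells the 1 such member, Iigp1, was higher by the size rule (0.56, -0.005 to 1.14), with an interval that held 0. The background there was 5.27%, with 4.13% of genes lower. Fibroblast-like cells had 1914 CPM in SG-free and 969 CPM in control (0.98, 0.82 to 1.14), with 4 of 5 members higher and 0 lower at backgrounds of 10.5% and 6.38%. There Gbp4 (111 SG-free and 4 control UMIs) and Gbp2 (78 SG-free and 24 control UMIs) reached the minimum mainly through the SG-free library. That count of higher members is thus not independent of the ratio. Neutrophil-like cells had the highest sums of the 9 classes, 2328 CPM in SG-free and 1208 CPM in control (0.95, 0.56 to 1.34), from 137 SG-free and 95 control UMIs only, and no member reached 100 UMIs there, where the backgrounds were 18.4% higher and 13% lower. The interval of the log2 ratio in CD8 T-like cells thus ends below the intervals in presumed tumour, macrophage-like and fibroblast-like cells, which is a statement about counting error in these libraries and was not tested.

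**Figure D1:**
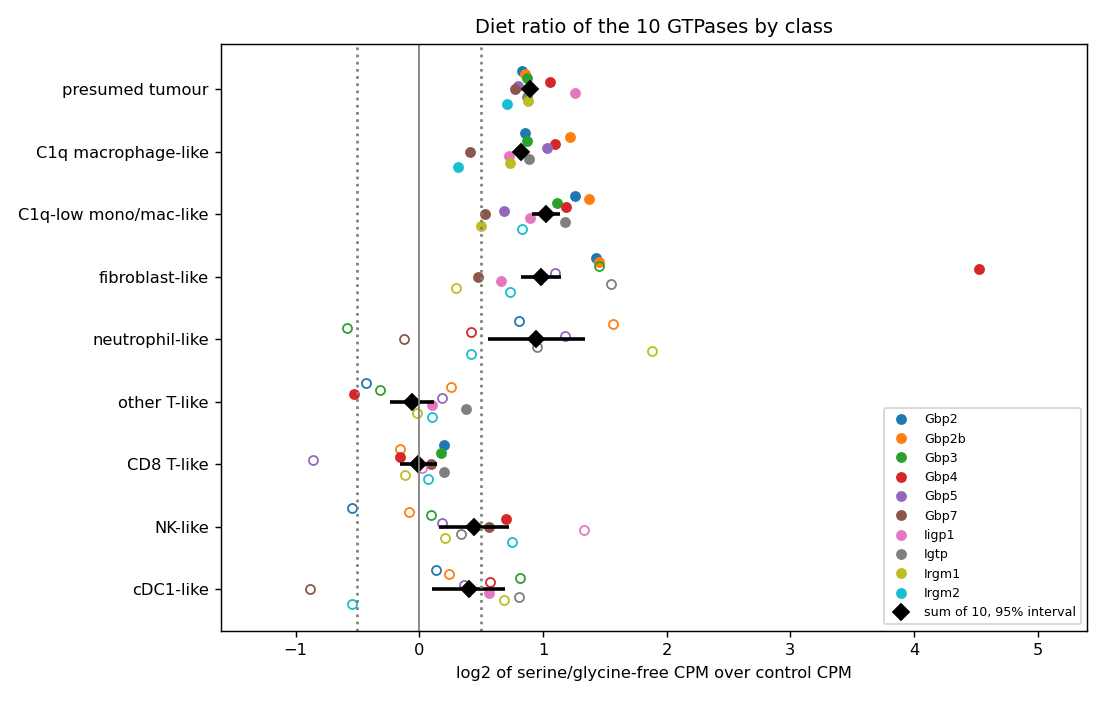
Log2 ratio of the serine/glycine-free over the control level (x axis, no unit) for each class (y axis). Coloured points are the 10 genes, filled where a gene had at least 100 UMIs over both libraries, and diamonds with lines are the sum of the 10 with its 95% counting interval; dotted lines mark 0.5 and -0.5. The points of presumed tumour cells all lie between 0.71 and 1.26, whereas the sums of CD8 T-like and other T-like cells lie at -0.01 and -0.06.

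Across classes the order of summed levels in the serine/glycine-free library ran from neutrophil-like and fibroblast-like cells through the C1q and C1q-low classes, other T-like, presumed tumour, CD8 T-like and NK-like cells to cDC1-like cells. Of the 8 neighbouring pairs in this order, 4 had overlapping counting intervals: neutrophil with fibroblast, fibroblast with C1q macrophage, other T with presumed tumour, and NK with cDC1. In the control library 4 of 8 pairs overlapped as well, other T-like cells stood above C1q-low cells, and CD8 T-like cells stood above presumed tumour cells. The place of presumed tumour cells thus differed between the libraries: 870 CPM against 603 CPM in CD8 T-like cells of the serine/glycine-free library, and 467 CPM against 606 CPM in those of the control library.

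**Figure D2:**
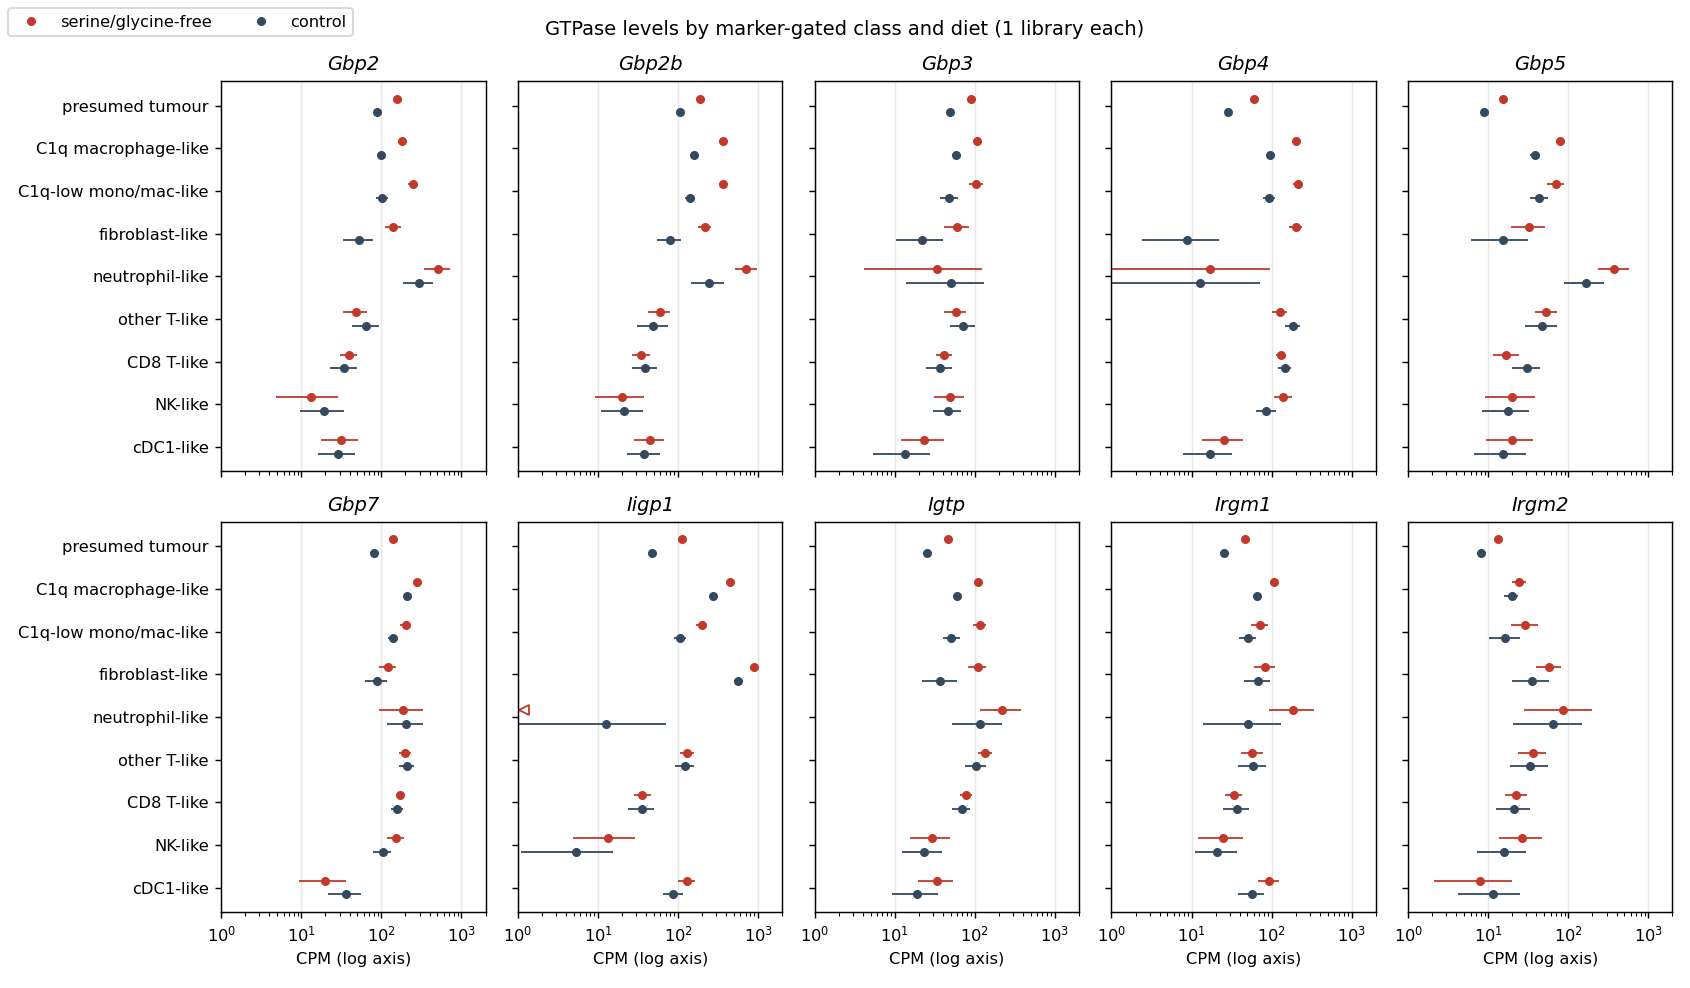
Level of each GTPase (x axis, CPM on a log scale) in each class (y axis), with red points for the serine/glycine-free library above dark points for the control library and lines for 95% Poisson counting intervals. An open triangle at the left edge marks a gene with 0 UMIs, which was Iigp1 in neutrophil-like cells of the serine/glycine-free library.

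Gbp2 and Gbp2b, whose proteins (mouse GBP2 and GBP1) coat parasite vacuoles and bacteria, had the most UMIs of the Gbp genes in presumed tumour cells. Gbp2 stood at 157 CPM in the serine/glycine-free and 87.9 CPM in the control library (log2 0.83, 0.80 to 0.87), and Gbp2b at 189 CPM in SG-free and 105 CPM in control (0.85, 0.82 to 0.88). In C1q macrophage-like cells Gbp2b had the highest ratio of the 10, with 362 CPM in the serine/glycine-free and 156 CPM in the control library (1.22, 1.09 to 1.34), while Gbp2 had 179 CPM in SG-free and 98.9 CPM in control (0.85). In the C1q-low class Gbp2 was at 248 CPM in SG-free and 103 CPM in control (1.26, 0.96 to 1.57) and Gbp2b at 364 CPM in SG-free and 141 CPM in control (1.37, 1.11 to 1.63), and in fibroblast-like cells their ratios were 1.43 and 1.46. Of the 9 classes, both had the highest level in neutrophil-like cells of each library, at 510 CPM in SG-free and 292 CPM in control for Gbp2 and 714 CPM in SG-free and 242 CPM in control for Gbp2b, from 30 SG-free and 23 control UMIs of Gbp2 and 42 SG-free and 19 control UMIs of Gbp2b. NK-like cells were lowest for both, Gbp2 at 13.3 CPM in SG-free and 19.3 CPM in control and Gbp2b at 20.0 CPM in SG-free and 21.1 CPM in control, each from at most 12 UMIs. Neutrophil-like cells were thus the highest and NK-like cells the lowest of the 9 classes for both genes in each library. Over the 18 combinations of class and library, which share their libraries, their log2 levels had a Pearson correlation of 0.97, the highest of any pair of members, although their transcript ends share no 50-base word.

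Gbp3 was more even across classes than the other Gbp genes. It stood at 89.2 CPM in SG-free and 48.8 CPM in control in presumed tumour cells (0.87, 0.83 to 0.91), 106 CPM in SG-free and 58.0 CPM in control in C1q macrophage-like cells (0.87) and 41.3 CPM in SG-free and 36.5 CPM in control in CD8 T-like cells (0.18, -0.44 to 0.83). Its intervals overlapped between 7 of the 8 neighbouring classes in the serine/glycine-free library and 8 of 8 in the control library.

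Gbp4 was the Gbp gene with the highest ratio in presumed tumour cells, at 60.1 CPM in the serine/glycine-free and 29.0 CPM in the control library (1.05, 0.999 to 1.11). Its levels did not follow those of Gbp2. It was at 131 CPM in SG-free and 146 CPM in control in CD8 T-like cells (-0.16, -0.47 to 0.17) and at 140 CPM in SG-free and 86.1 CPM in control in NK-like cells (0.70, 0.14 to 1.27), both above its level in presumed tumour cells. Gbp4 made up 21.7% (SG-free) and 24.1% (control) of the GTPase UMIs of CD8 T-like cells, against 6.9% (SG-free) and 6.2% (control) in presumed tumour cells. Over the same 18 points its correlation with Gbp2 was -0.11, and with Gbp3 0.68. In other T-like cells it stood at 127 CPM in the serine/glycine-free library, lower than the 183 CPM in the control library (-0.53, -0.97 to -0.09). The widest ratio of any member in the 9 classes was Gbp4 in fibroblast-like cells, 201 CPM from 111 UMIs in the serine/glycine-free library and 8.71 CPM from 4 UMIs in the control library (4.53, 3.13 to 6.43). Leaving out the cell with most Gbp4 UMIs in each library gave 4.74, so that ratio did not rest on 1 cell, but the control level rests on 4 molecules in 60 cells.

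Gbp5, known in macrophages for promoting assembly of the NLRP3 inflammasome, was a minor transcript of presumed tumour cells, at 15.5 CPM in SG-free and 8.92 CPM in control (0.80, 0.69 to 0.90). Of the 9 classes it was highest in neutrophil-like cells of both libraries, at 374 CPM in SG-free and 165 CPM in control from 22 SG-free and 13 control UMIs (1.18, 0.13 to 2.29), next in C1q macrophage-like cells of the serine/glycine-free library, at 79.6 CPM, against 38.9 CPM in those of the control library (1.03, 0.77 to 1.30). CD8 T-like cells went the other way, with 16.8 CPM from 31 UMIs in SG-free against 30.6 CPM from 26 UMIs in control (-0.86, -1.66 to -0.05), below the 100 UMIs set for a call.

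Gbp7 stood higher in macrophage-like, neutrophil-like, T-like and NK-like cells than in presumed tumour cells of each library. Its intervals overlapped those of presumed tumour cells in NK-like cells of each library and in neutrophil-like cells of the serine/glycine-free library. Neutrophil-like cells had 187 CPM in SG-free and 203 CPM in control, from 11 SG-free and 16 control UMIs. In presumed tumour cells Gbp7 stood at 140 CPM in SG-free and 82.0 CPM in control (0.77, 0.74 to 0.81). In C1q macrophage-like cells it was at 279 CPM in SG-free and 210 CPM in control (0.41, 0.29 to 0.53), under the 0.5 limit, and in CD8 T-like cells, where it was the leading member, at 170 CPM in SG-free and 159 CPM in control (0.09, -0.20 to 0.40). It made up 28.1% (SG-free) and 26.2% (control) of GTPase UMIs in CD8 T-like cells and 31.4% (SG-free) and 28.9% (control) in NK-like cells, where it was at 153 CPM in SG-free and 104 CPM in control (0.56, 0.04 to 1.09). Of the 9 classes it was lowest in cDC1-like cells, at 19.5 CPM in SG-free and 36.1 CPM in control, from 10 SG-free and 19 control UMIs.

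Iigp1, the effector of the immunity-related set, had the highest ratio in presumed tumour cells, at 113 CPM in the serine/glycine-free and 47.2 CPM in the control library (1.26, 1.22 to 1.30). Without it the summed ratio there was 0.85, so the sum did not rest on Iigp1. Among the 9 classes its level was highest in fibroblast-like cells, at 895 CPM in SG-free and 566 CPM in control (0.66, 0.44 to 0.88), where it made up 46.7% (SG-free) and 58.4% (control) of GTPase UMIs, and next in C1q macrophage-like cells, at 451 CPM in SG-free and 272 CPM in control (0.73, 0.63 to 0.83). In CD8 T-like cells it was at 35.9 CPM in SG-free and 35.3 CPM in control (0.02, -0.62 to 0.70). Neutrophil-like cells, where Gbp2, Gbp2b and Gbp5 were highest, had 0 SG-free and 1 control Iigp1 UMI. Across the 18 points its correlation with the other 9 members ran from -0.34 (Gbp5) to 0.28 (Gbp4).

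The regulators Igtp, Irgm1 and Irgm2 were low in presumed tumour cells, and each was higher in the serine/glycine-free library. Igtp stood at 46.3 CPM in SG-free and 25.4 CPM in control (0.87, 0.81 to 0.93), Irgm1 at 46.3 CPM in SG-free and 25.2 CPM in control (0.88, 0.82 to 0.94) and Irgm2 at 13.2 CPM in SG-free and 8.07 CPM in control (0.71, 0.60 to 0.82). In C1q macrophage-like cells Igtp (110 CPM in SG-free and 59.6 CPM in control, 0.89) and Irgm1 (108 CPM in SG-free and 64.9 CPM in control, 0.73) were higher as well, while Irgm2 (24.3 CPM in SG-free and 19.5 CPM in control, 0.32, -0.10 to 0.73) had an interval that held 0. Igtp was the regulator with most UMIs in T-like cells, at 78.2 CPM in SG-free and 68.2 CPM in control in CD8 T-like cells (0.20, -0.25 to 0.66) and 133 CPM in SG-free and 103 CPM in control in other T-like cells (0.38, -0.14 to 0.91). Irgm1 made up 21.6% (SG-free) and 17.6% (control) of GTPase UMIs in cDC1-like cells, at 91.8 CPM in SG-free and 57.0 CPM in control (0.69), with an interval that held 0. Of the 10 members, Igtp followed the mean of the set most closely over the 18 points (Pearson correlation 0.85, itself being part of the mean), and Iigp1 (0.33) and Gbp4 (0.40) least.

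The higher level in tumour cells of the serine/glycine-free library went with more cells carrying several GTPases at once. Each presumed tumour cell was thinned to 4000 UMIs, which left out 197 SG-free and 75 control shallower cells. At this depth 67.5% (66.6 to 68.4) of 10763 cells of the serine/glycine-free library and 50.4% (49.4 to 51.4) of 9722 cells of the control library had at least 1 of the 10 genes. At least 3 genes were found in 31.1% (30.2 to 31.9, SG-free) and 16.3% (15.6 to 17.1, control) of cells, which was 52.5% in SG-free and 37.9% in control before thinning. At least 7 genes were found in 5.44% (SG-free) and 2.17% (control) of cells, and all 10 in 11 SG-free and 4 control cells. The mean was 1.98 (SG-free) and 1.19 (control) genes per cell. Gbp2 was found in 33.7% (SG-free) and 20.9% (control) of cells and Gbp7 in 32.3% in SG-free and 21.2% in control, while Gbp5 (5.15% in SG-free and 2.91% in control) and Irgm2 (4.92% in SG-free and 2.94% in control) were the least detected. Before thinning the shares of Gbp2 were 52.1% in SG-free and 40.3% in control. Among cells that had Iigp1 the mean was 2.14 (SG-free) and 1.88 (control) Iigp1 UMIs, so both the share of positive cells (21.9% in SG-free and 10.7% in control) and the count per positive cell were higher. The tenth of cells with most GTPase UMIs held 49.6% of them in the serine/glycine-free and 60.4% in the control library.

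**Figure D3:**
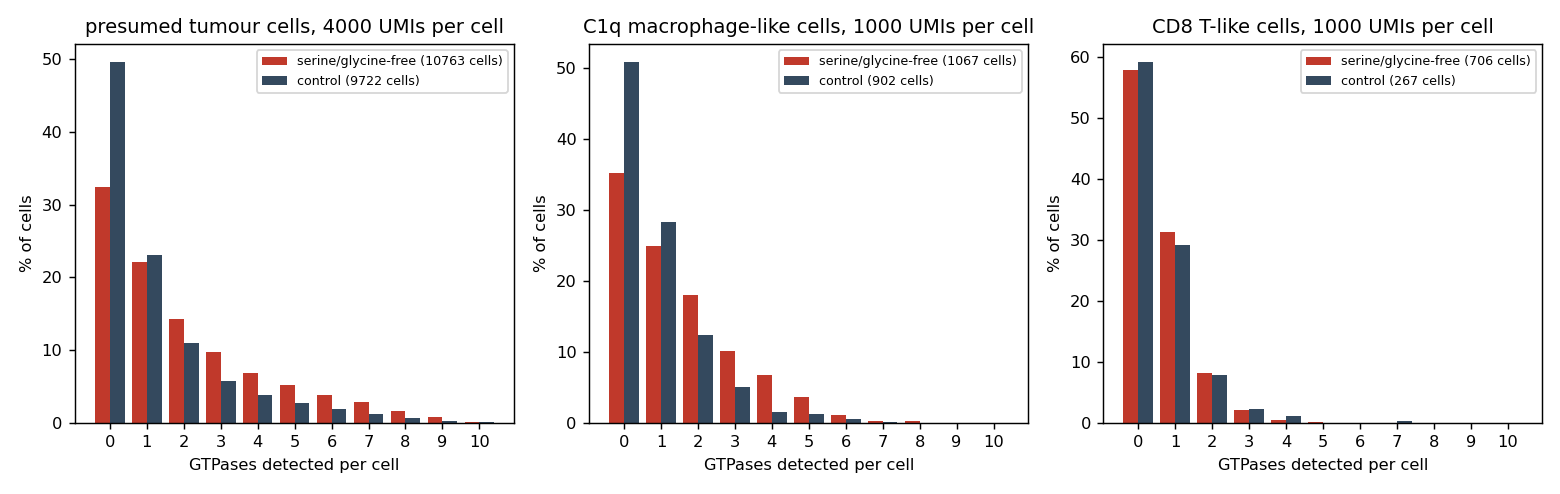
Share of cells (y axis, %) by the number of the 10 GTPases detected per cell (x axis) after thinning to equal depth, with red bars for the serine/glycine-free library to the left of dark bars for the control library. Cells with none were 32.5% (SG-free) and 49.6% (control) of presumed tumour cells, and every bar from 2 genes upward is higher in the serine/glycine-free library there, while the bars of CD8 T-like cells lie close together.

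At 1000 UMIs per cell, the depth that other classes allow, at least 3 GTPases were found in 22.0% (19.6 to 24.6, SG-free) and 8.54% (6.80 to 10.5, control) of C1q macrophage-like cells and in 17.6% (SG-free) and 8.0% (control) of C1q-low cells. Presumed tumour cells had 8.59% in SG-free and 4.17% in control at this depth, and fibroblast-like cells 21.1% (13.2 to 31.0) in SG-free and 3.39% (0.41 to 11.7) in control. Other T-like cells had 6.93% in SG-free and 7.19% in control, and CD8 T-like cells 2.69% (1.63 to 4.17) in SG-free and 3.75% (1.81 to 6.78) in control. A low share can be background from free RNA in the droplets. Low shares included those of cDC1-, CD8 T- and NK-like cells, and that of fibroblast-like cells in the control library (3.39%). The shares were 2.63% (SG-free) and 1.03% (control) in cDC1-like cells. Their median depth before thinning was 4254.5 UMIs in SG-free and 5156 in control, and the CD8 T-like cells had 1947 UMIs in SG-free and 2538 in control. NK-like cells (2147 UMIs in SG-free and 4031 in control) had 2.86% in SG-free and 0 of 119 cells in control. By 3 counts of 119, this allows a share of up to 2.52% of cells with such UMIs at this depth, which covers counting error only and does not limit the share of cells that express the genes. Before thinning the C1q macrophage-like shares were 56.1% in SG-free and 45.2% in control, the CD8 T-like shares 11.2% in SG-free and 16.9% in control and the cDC1-like shares 21.6% in SG-free and 12.1% in control. Neutrophil-like cells were too shallow for this comparison, since 2 (SG-free) and 22 (control) of them reached 1000 UMIs.

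Within each library the GTPases were found in the same tumour cells more often than the product of their shares. Of the 45 pairs, 45 had an odds ratio of co-detection above 1 in both libraries, with a median of 4.58 (range 2.81 to 7.20) for the serine/glycine-free and 5.73 (range 3.45 to 11.8) for the control library. Odds ratios of other gene pairs were not computed, so these counts are not read as particular to the GTPases. For Gbp2 with Gbp2b, both were found in 19.7% (SG-free) and 10.9% (control) of cells, where the product of their shares gives 11% in SG-free and 4.38% in control. The highest pair in each library was Gbp5 with Iigp1, found together in 353 SG-free and 156 control cells. Gbp3 with Irgm2 was the lowest of the serine/glycine-free library (2.81) and Gbp2 with Irgm1 the lowest of the control library (3.45). The median odds ratio in SG-free was 4.87 within the Gbp genes, 5.06 within the immunity-related genes and 4.0 between them, and in control 6.75, 5.30 and 4.93. Over cells, the summed Gbp and the summed immunity-related UMIs had a Pearson correlation of 0.58 (SG-free) and 0.55 (control). The summed GTPases had almost none with the depth of the cell before thinning (SG-free 0.01, control -0.05). In C1q macrophage-like cells at 1000 UMIs the median odds ratio was 2.28 (SG-free) and 2.49 (control), with 42 of 45 pairs above 1 in each library, and in CD8 T-like cells 30 of 45 pairs were above 1 in each. The rarest pairs of CD8 T-like cells were found together in 0 cells of each library, so a value not above 1 can reflect few cells.

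**Figure D4:**
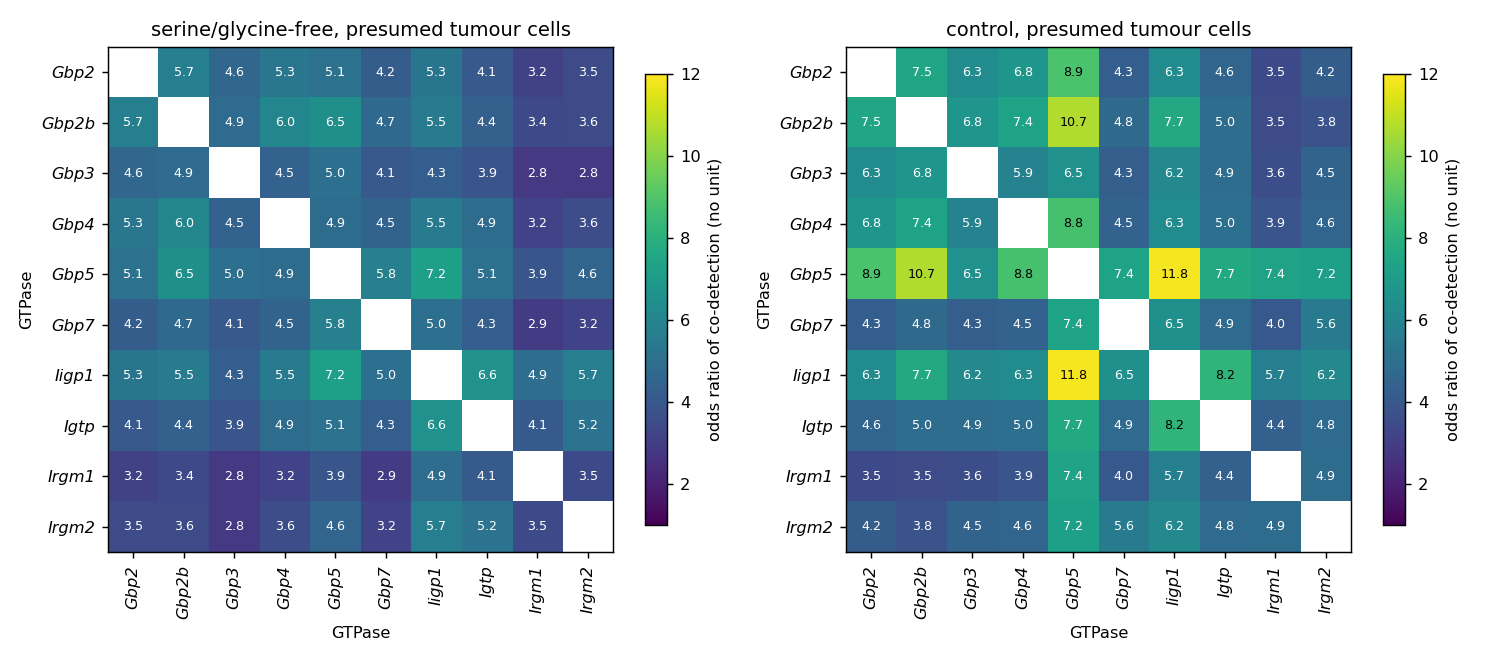
Odds ratio of co-detection (colour and printed value, no unit) for each pair of GTPases in presumed tumour cells thinned to 4000 UMIs, with the serine/glycine-free library on the left and the control library on the right. Every pair is above 1, and the row of Gbp5 holds the highest values of the control library. The values of Irgm1 with Gbp2, Gbp2b and Gbp3 are among the lowest in both libraries.

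Genes whose level varied most like the GTPases over single tumour cells were other interferon-induced genes. Among 7298 genes found in at least 5% of cells, and ranked by the lower of the correlations in the 2 libraries, those most alike included Ly6a, a surface protein induced by interferons (Pearson correlation 0.52 in SG-free and 0.44 in control), Zbp1, a sensor of Z-form nucleic acid (SG-free 0.41, control 0.42), the GTPase gene Gm4951 (SG-free 0.44, control 0.39) and the antiviral membrane protein gene Ifitm3 (SG-free 0.44, control 0.38), over 10763 SG-free and 9722 control cells of equal depth. Over the 18 points of class and library, the closest of 11666 genes were D830050J10Rik (0.83), Ifih1, a sensor of viral RNA (0.82), Tom1 (0.82), Ifi27l2a, an interferon-induced gene (0.80), and Tmem140 (0.78). These points share their libraries and their differences in depth.

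Other interferon-induced GTPases had ratios of similar size in presumed tumour cells, and the other interferon lists had smaller medians there. Of the other interferon-induced GTPase genes, 10 were analysed, and 10 of 10 were higher in presumed tumour cells, with a median log2 ratio of 0.79. They included Gbp10 (3.87 CPM in SG-free and 1.62 CPM in control, 1.26), Gm4951 (53.5 CPM in SG-free and 24.4 CPM in control, 1.13) and Tgtp1 (3.83 CPM in SG-free and 2.05 CPM in control, 0.90). Of 14 genes that respond to interferon-gamma, most of them of MHC class I presentation, 3 were higher, with a median of 0.35: the chemokine gene Cxcl9 (2.91 CPM in SG-free and 1.69 CPM in control, 0.78), the peptide transporter gene Tap1 (64.9 CPM in SG-free and 42.7 CPM in control, 0.60) and Tapbp (120 CPM in SG-free and 83.5 CPM in control, 0.52). Of 20 genes of the type I interferon response 2 were higher, with a median of 0.32: Rtp4 (29.3 CPM in SG-free and 16.9 CPM in control, 0.79) and the antiviral synthetase gene Oas3 (8.46 CPM in SG-free and 5.47 CPM in control, 0.63), followed by Ifit3 (19.6 CPM in SG-free and 13.9 CPM in control, 0.50), just under the limit. The same type I list had a median of -0.17 in C1q macrophage-like cells, with 0 higher and 1 lower of 19, where the 10 GTPases had a median of 0.86. In C1q-low cells its median was 0.23, with 3 of 15 higher (Rtp4, Zbp1 and Rsad2) and 1 lower (Ifit1). The interferon-gamma-responsive list had 4 of 13 higher and a median of 0.34 in C1q macrophage-like cells, and 9 of 13 higher and a median of 0.68 in C1q-low cells. All these lists are read against the 5.82% of genes that were higher in presumed tumour cells, the 3.1% in C1q macrophage-like cells and the 8.96% in C1q-low cells. The shares of genes that were lower were 3.99% in C1q macrophage-like and 5.36% in C1q-low cells.

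Lists of genes that act before or beside the GTPases had medians of at most 0.34 in presumed tumour cells. Over all genes 5.82% were higher and 4.79% lower in presumed tumour cells, and 3.1% were higher in C1q macrophage-like cells. With so few genes per list, 1 of 12, 0 of 11 and 1 of 8 are not read as differing from these shares. Of 12 measured genes of interferon-gamma signalling 1 was higher in presumed tumour cells, the MHC class II activator Ciita (1.80 CPM in SG-free and 0.75 CPM in control, 1.25), with a median of 0.34. In C1q macrophage-like cells 4 of 12 were higher, with a median of 0.26, among them Ciita (51.8 CPM in SG-free and 19.9 CPM in control, 1.38) and Irf1 (103 CPM in SG-free and 69.7 CPM in control, 0.56). In presumed tumour cells Irf8 (0.45) and the ISRE-binding factor Irf1 (40.5 CPM in SG-free and 30.1 CPM in control, 0.43) came next. The part of leukocyte RNA in the tumour-cell values of Ciita, Irf8 and Cxcl9 was not tested. A further list had 11 measured genes. It holds autophagy proteins by which these GTPases tell vacuoles from the cell's own membranes, with proteins that lipidate or tether them. Of the 11 genes 0 were higher and 0 lower, with a median of -0.01 and Gabarapl2 (0.33), Gabarapl1 (-0.22) and Atg3 (0.20) as the widest. Of 8 inflammasome partners 1 was higher, the cytokine gene Il1b (5.54 CPM in SG-free and 1.14 CPM in control, 2.28), with a median of 0.27 and Casp1 (0.34) and Il18 (0.31) next. Il1b stood at 17368 CPM in SG-free and 12154 CPM in control in neutrophil-like cells and at 539 CPM in SG-free and 581 CPM in control in both macrophage-like classes joined, and the part of leukocyte RNA in its tumour-cell value was not tested. Over single tumour cells the summed GTPases correlated with the other GTPases at 0.56 in SG-free and 0.51 in control, with the type I list at 0.53 (SG-free) and 0.49 (control), with the interferon-gamma-responsive list at 0.44 (SG-free) and 0.35 (control), and with the autophagy list at -0.05 (SG-free) and -0.01 (control).

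The gene of interferon-gamma itself was found in T-like and NK-like cells, and its diet ratio rested on single cells. Ifng stood at 146 CPM in CD8 T-like cells of the serine/glycine-free library and 318 CPM in those of the control library (-1.12, -1.37 to -0.88), in 161 of 797 SG-free and 62 of 273 control cells. Without the cell with most Ifng UMIs in each library the ratio was 0.03. In other T-like cells it was -2.29, and -0.17 without those cells, and in NK-like cells 3.22, and 1.19 without them, from 12 SG-free and 10 control positive cells. Presumed tumour cells had 19 Ifng UMIs in all.

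Presumed tumour cells with at least 3 detected genes of the type I interferon list were more frequent in the serine/glycine-free library. The GTPases were higher in that library whether or not a cell had detected genes of this list. Detection misses transcripts, so a cell without detected genes is not shown to lack the response. Whether the GTPase difference is separate from that response was not tested. At 4000 UMIs per cell, 18.7% of presumed tumour cells of the serine/glycine-free library and 12.3% of those of the control library had at least 3 of the 20 type I genes. These cells had 2234 CPM in SG-free and 1602 CPM in control of the summed GTPases and held 47.4% (SG-free) and 41.1% (control) of all GTPase UMIs. Cells with none of the 20 genes were 38.3% (SG-free) and 48.9% (control) of cells and had 343 CPM in SG-free and 206 CPM in control. Cells with 1 or 2 of them were 42.9% in SG-free and 38.8% in control and had 775 CPM in SG-free and 472 CPM in control. At this depth the log2 ratio of the summed GTPases was 0.74 (0.68 to 0.80) in cells with none of the 20 genes, 0.72 (0.67 to 0.76) in cells with 1 or 2 and 0.48 (0.44 to 0.52) in cells with at least 3. With cells grouped by their UMIs at full depth it was 0.82 in cells with none and 0.70 in cells with at least 3, against 0.90 in all presumed tumour cells. These splits were chosen after seeing the data.

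**Figure D5:**
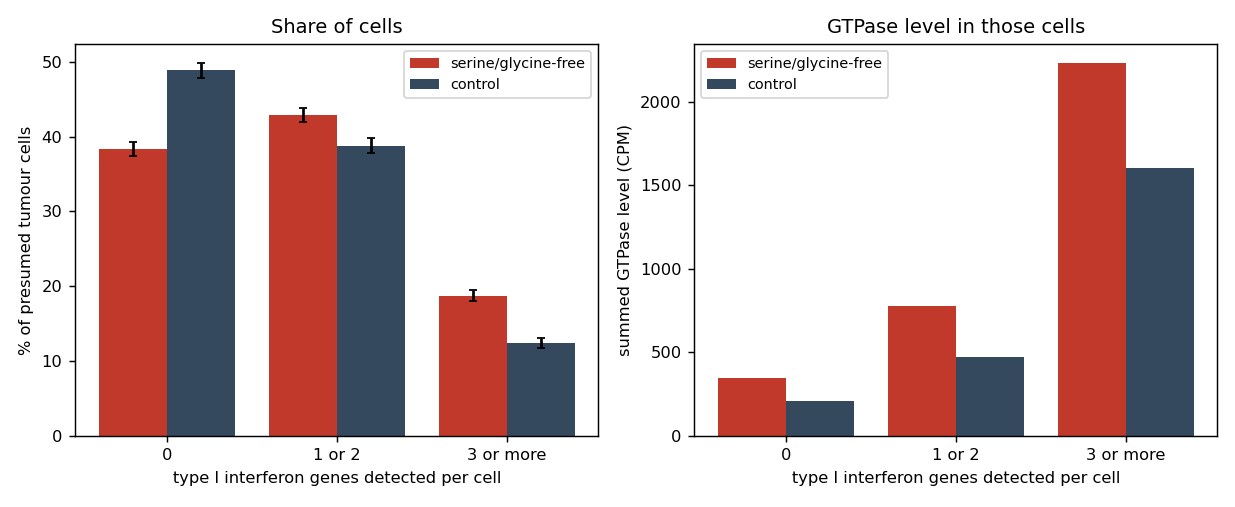
Share of presumed tumour cells (left, %, with 95% exact binomial intervals) and summed level of the 10 GTPases in them (right, CPM) by the number of type I interferon genes detected per cell at 4000 UMIs, with red bars for the serine/glycine-free library to the left of dark bars for the control library. In each of the 3 bins the level is higher in the serine/glycine-free than in the control library, and the share of cells with 3 or more type I genes is 18.7% against 12.3%.

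Leukocyte panel RNA in the presumed tumour cells was higher in the serine/glycine-free than in the control library. The gate left out tumour cells with a leukocyte panel of 5 or more per 10000 UMIs, which holds the estimates below down. The 6 leukocyte panel genes summed to 18.2 CPM in presumed tumour cells of the serine/glycine-free library and 9.75 CPM in those of the control library, with single genes at 1.89 to 5.56 CPM (SG-free) and 0.931 to 3.69 CPM (control) and none at 0. Set against the leukocyte classes, this is 0.519% (SG-free) and 0.303% (control) of the UMIs of these cells, an amount that would bring 6.71 CPM in SG-free and 2.66 CPM in control of the GTPase sum, or 0.771% (SG-free) and 0.570% (control) of its level. For single members the share was highest for Gbp5, at 1.87% in SG-free and 1.26% in control. In the tumour cells with 0 UMIs of the leukocyte panel the log2 ratio of the sum was 0.90 and 10 of 10 members were higher, as in all presumed tumour cells. The whole class had only 0.182 (SG-free) and 0.0975 (control) leukocyte panel UMIs per 10000, so this subset differs little from it. The part of leukocyte RNA in the GTPase ratio was not tested.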

How the data were processed

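Single-cell RNA libraries of 2 tumour groups were analysed, 1 library each, from raw UMI counts per gene and cell barcode as deposited by the authors. Counting was done with Cell Ranger 7.0.1 per the file headers, and with Cell Ranger 2.2.2 on mm10 per the submitters' processing notes. The labels' protocol text names human cardiac septal tissue, which disagrees with the mouse tumour labels. How intronic and multi-mapping reads were handled: not given in the sources used here. There were 20662 barcodes with 173592046 UMIs in the serine/glycine-free library and 14774 barcodes with 173785388 UMIs in the control library.

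Cells with at least 500 UMIs, 300 genes and at most 20% mitochondrial UMIs were kept (20312 and 14159), and Scrublet (scanpy 1.11.5), run per library, removed 1206 (5.94%) and 571 (4.03%) as doublets. A class needed at least 3 panel genes and a panel share that was set after seeing the panels' distributions, not those of the GTPases (per 10000 UMIs: tumour 10, monocyte/macrophage 50, T 20, NK 20, cDC1 20, neutrophil 100, fibroblast 50). Leukocyte classes needed a leukocyte panel of at least 10 per 10000, and tumour, fibroblast and endothelial cells less than 5. C1q cells had at least 2 C1q genes. UMIs were summed per class and library, scaled to CPM, and compared as log2 ratios with exact conditional binomial intervals; levels have Poisson and shares exact Clopper-Pearson 95% intervals. The size rule was checked on simulated class sums. Members and lists were chosen with earlier results of these data known. Text names all 10 members, the 3 list genes of largest absolute ratio in tumour cells and the 5 most similar genes, of which 1 is not reported here. Software was Python 3.11.15, numpy 2.4.6, scipy 1.17.1, pandas 2.3.3, anndata 0.12.19 and matplotlib 3.10.9. Gbp11, Gm12250, Mx1, Mx2 and Rabgdia were not analysed here. Intervals leave out PCR and capture variation and variation between mice.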

Additional observations from a re-analysis of the deposited data

Results flagged for a closer look

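Gbp4 stood out because its diet ratio had opposite signs in 2 classes, each with a counting interval that leaves out 0. In other T-like cells it was 127 CPM in the serine/glycine-free and 183 CPM in the control library, a log2 ratio of -0.53 (-0.97 to -0.09), whereas in fibroblast-like cells it was 201 CPM in SG-free and 8.71 CPM in control, a ratio of 4.53 (3.13 to 6.43). The difference between the classes was not tested, as each diet has 1 library. Gbp4 shares 19.4% of the 50-base words of its transcript ends with other genes.

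Gbp5 differed in the same way between CD8 T-like cells, at 16.8 CPM in SG-free and 30.6 CPM in control with a log2 ratio of -0.86 (-1.66 to -0.05), and neutrophil-like cells, at 374 CPM in SG-free and 165 CPM in control with a ratio of 1.18 (0.13 to 2.29). These rest on 31 SG-free and 26 control UMIs and on 22 SG-free and 13 control UMIs, and this difference was not tested either.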

How the results depend on the processing

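No paired analysis was possible because each diet has 1 library. The summed log2 ratio in presumed tumour cells (0.90) moved beyond its counting interval to 0.85 with at least 4 panel genes per cell, 0.85 without mitochondrial and ribosomal-protein genes, 0.87 with median-of-ratios factors, 0.88 as a mean over cells, 0.86 with cells thinned to 1000 UMIs and 0.85 without Iigp1, and, in splits added after seeing the data, to 0.82 in cells with 0 type I UMIs and 0.70 in cells with 3 or more type I genes at full depth, to 0.74 with 0, 0.72 with 1 or 2 and 0.48 with 3 or more type I genes at an equal depth of 4000 UMIs, and to 0.91 with ungated cells of a tumour panel of at least 5 per 10000 added. In monocyte/macrophage-like cells (0.87) it moved to 0.94 with thinning to 1000 UMIs. The share of tumour cells with 3 or more GTPases (31.1% in the serine/glycine-free, 16.3% in the control library) moved to 29.1% in SG-free and 15.4% in control with 4 panel genes, 8.59% in SG-free and 4.17% in control at 1000 UMIs, 52.5% in SG-free and 37.9% in control without thinning and 25.6% in SG-free and 12.8% in control without Gbp2b. The neutrophil-like sum reversed to -0.87 from 0.95 with at least 1000 UMIs per cell, where 2 SG-free and 22 control cells remained. The cause of the other shifts was not tested. The counts of members higher were 10 in presumed tumour cells and 0 in CD8 T-like cells under each alternative run, and in monocyte/macrophage-like cells 8, but 9 as a mean over cells and 10 at a limit of 0.25. Single members kept their sign under 130 of 130 combinations of member and alternative in presumed tumour cells (0.64 to 1.32) and 120 of 120 in monocyte/macrophage-like cells, and under 103 of 110 in CD8 T-like cells. The median of all genes was shifted by less than 0.1 by each scaling (0.03 and -0.02 in presumed tumour cells). Depth limits the shares, most of all in neutrophil-like cells.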

Other observations

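Endothelial-like cells were below the cell minimum, with 49 cells in the serine/glycine-free and 34 in the control library, and are described here because their levels, seen beforehand, were the highest of any class. The 10 GTPases summed to 4398 CPM in SG-free and 2007 CPM in control, a log2 ratio of 1.13 (0.98 to 1.28). Iigp1 stood at 1457 CPM in SG-free and 709 CPM in control (1.04, 0.79 to 1.30), Gbp4 at 788 CPM in SG-free and 393 CPM in control (interval of the log2 ratio 0.66 to 1.35), and Igtp at 278 CPM in SG-free and 88.2 CPM in control (1.65, 0.97 to 2.38). Irgm2, with 12 UMIs in each library, was the member nearest to 0 (0.05, -1.23 to 1.33), and the other 9 lay at 0.84 or more.

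Plasmacytoid dendritic-like cells (59 SG-free and 29 control cells) had 484 CPM in SG-free and 376 CPM in control of the sum (0.37, -0.25 to 1.01), of which Iigp1 made up 59.4% in SG-free and 60.6% in control. B/plasma-like cells numbered 290 (SG-free) and 16 (control), and their 99 SG-free and 9 control GTPase UMIs gave 266 CPM in SG-free and 229 CPM in control (0.22, -0.77 to 1.39).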
